A study of Homo sapiens with 8 samples.

Results

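The heme enzymes examined here are the products of 9 genes, ALAS1, ALAD, UROS, UROD, CPOX, PPOX, FECH, HMOX1 and HMOX2, out of 18132 genes measured. They were read by the 29 probe sets, of 49293 in all, whose annotation names 1 of these genes and no other gene. DU145 cells are a human prostate cancer line first grown from a metastasis in the brain, and Aldrin is a chlorinated insecticide known as an endocrine disruptor. Aldrin-exposed cells were cultured for 50 days with 1 µM Aldrin, renewed at each passage, and were read on 4 Affymetrix arrays, and Non-exposed cells of the same line were read on another 4. The labels name a final DMSO concentration of 0.01% in the Aldrin medium, and whether the Non-exposed cells received the solvent is not stated. Nothing states that the 4 replicates of a condition were separate exposures, so their spread may be technical. FECH was included because its difference in this same comparison was already known, so the values, intervals and counts given for the enzymes are a description and not a test of them.

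Heme is the iron-containing ring that cytochromes, catalase and peroxidases need, and every nucleated human cell makes its own. Synthesis starts in the mitochondrion, where ALAS1 joins glycine and succinyl-CoA, continues in the cytosol through ALAD, UROS and UROD, and returns to the mitochondrion for CPOX, PPOX and FECH, which puts iron into protoporphyrin. Free heme is opened by the heme oxygenases, HMOX1, which oxidants and heme itself induce, and HMOX2, which is constitutive, and the product biliverdin is reduced to bilirubin.

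The DNA before the start of FECH is shown because FECH held the widest differences between the conditions among the 9 genes. In RefSeq (GRCh38.p14) FECH lies at chr18:57544377-57586702 on the minus strand. The 250 bases before its start site, chr18:57586703-57586952, are written 5′ to 3′ on the strand of the gene, with matches to the GC box GGGCGG on either strand in capitals.
FECH: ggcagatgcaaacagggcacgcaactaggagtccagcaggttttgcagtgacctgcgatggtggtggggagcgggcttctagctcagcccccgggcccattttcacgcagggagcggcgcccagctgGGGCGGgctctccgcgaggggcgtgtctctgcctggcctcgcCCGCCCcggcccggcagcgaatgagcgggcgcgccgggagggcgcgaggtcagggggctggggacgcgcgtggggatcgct
The GC box is the letter pattern bound by Sp1-family factors, and FECH held 3 matches in the 300 bases from 250 before to 50 after its start. At least 1 match was present in 45% of the 35116 RefSeq promoter windows of the same length, and 2 or more in 26.7%. The FECH window also held 1 match to the core of the antioxidant response element, TGACNNNGC, a pattern found in 13.3% of windows, and it did not overlap a GC box. ALAS1, the gene of the first and rate-limiting enzyme, had a match of another kind, to the site of the transcription factor NRF1, the half-site GCGCA followed by its reverse complement. NRF1 is known for driving nuclear genes of the respiratory chain. The match is in capitals in the 30 bases at chr3:52198094-52198123, on the plus strand just after the ALAS1 start.
ALAS1: agcgcccaagGCGCATGCGCagcggtcact
Of the 10 windows held for 7 of the 9 genes, the ALAS1 window was the one with this match, which 1.24% of all windows carry. The GC box was found in 8 of the 10 windows, and the E-box CACGTG, present in 7.26% of all windows, in 1 HMOX2 window. The CPOX window and 1 ALAD window held 3 GC boxes, as did that of FECH, and the ALAS1 window and the other ALAD window held 2. Both strands were searched, and a match describes the letters and not a bound factor.

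The arrays did not vary evenly. After the mean of each condition was taken away, 1 component held 58.3% of the remaining variance over all probe sets, with Aldrin-exposed replicate 3 and Non-exposed replicate 4 at one end (0.57 and 0.51), Non-exposed replicate 2 at 0.19, and the other 5 arrays between -0.36 and -0.05. The deviations of those 2 arrays correlated at 0.78 over all probe sets, although they belong to different conditions. For the heme enzymes, both arrays deviated to the same side in 22 of 29 probe sets, or 75.9%, beside 76.6% of all probe sets. Results are therefore also given without this pair. The cells carried the epithelial markers of a carcinoma line, since EPCAM, KRT8, KRT18, KRT19 and CDH1 read 9.53 to 12.97 on the log2 scale. All 5 were lower in Aldrin-exposed cells, as were 9830 of all 18132 genes at 1 probe set a gene, and none passed the test. Each overlapped between the conditions on its own, and CDH1 had the widest difference, -0.46, against -0.25 to -0.09 for the others. The mean of the 5 ran from 11.51 to 11.61 over Aldrin-exposed arrays and from 11.71 to 11.87 over Non-exposed arrays, without overlap. Single probe sets separated the conditions in 1.99% of all, and the share for means of 5 genes was not counted. The part of this difference in the values of the enzymes was not tested. In bulk RNA, fewer cells with a transcript and less of it per cell cannot be told apart. Of the other markers measured, 3 of 4 for red cell precursors (all but ALAS2), 3 of 4 for leukocytes, 3 of 5 for fibroblasts and 1 of 3 for prostate luminal cells lay in the dimmest 25% of probe sets.

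**Figure D1:**
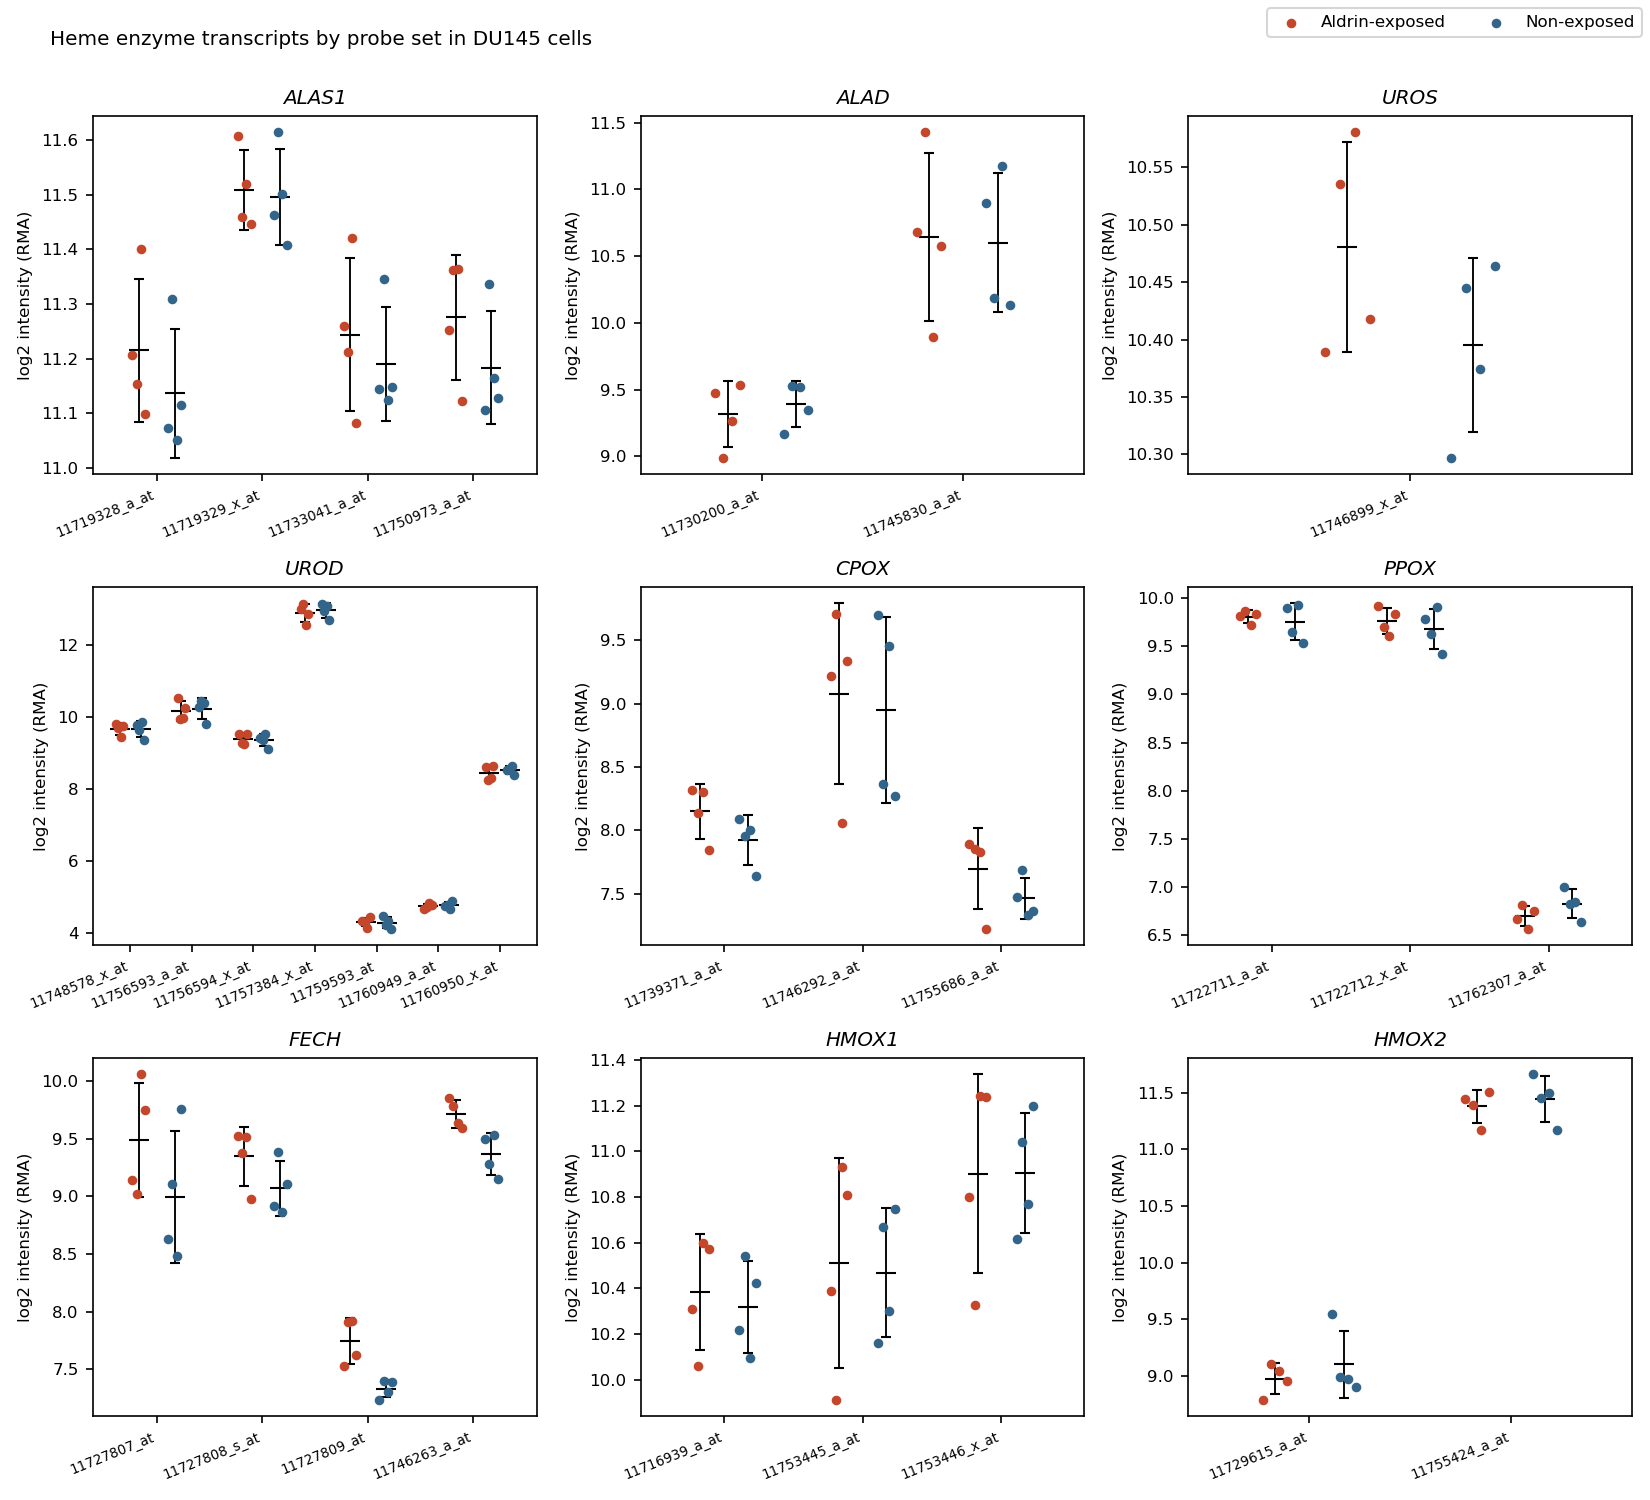
Log2 intensity (RMA, vertical axis) of each of the 29 probe sets of the 9 genes, 1 panel a gene, with Aldrin-exposed arrays left of Non-exposed arrays. Points are the 4 arrays of a condition in replicate order, and bars give the mean ± SD. The conditions separate completely in FECH 11727809_at and FECH 11746263_a_at and overlap in the other 27.

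Among the 29 probe sets the FECH transcript had the 4 largest differences, all with the higher mean in Aldrin-exposed cells, at 0.28 to 0.49 on the log2 scale. The 25 probe sets of the other 8 enzymes lay between -0.13 and 0.23. Of the 29, 20 had the higher mean in Aldrin-exposed cells and 9 the lower, beside 48.2% higher among all probe sets. The median difference of the 29 was 0.04, and that of all probe sets was below 0.01 in size. No heme enzyme probe set passed limma's adjusted threshold of 0.05, which 0.00203% of all probe sets did. At an unadjusted p under 0.01 there were 2, both of FECH, beside a background of 0.641% in either direction and 0.17% higher, and no others were added at 0.05. Because FECH was chosen on this contrast, nothing is read from that count. The difference was smaller than the larger SD of the 2 conditions in 24 of the 25 probe sets other than FECH, and the 95% interval included 0 in all 25.

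FECH, ferrochelatase, is the last enzyme of synthesis and carries an iron-sulfur cluster in mammals. Its brightest probe set, 11746263_a_at, read 9.85, 9.78, 9.64 and 9.59 in Aldrin-exposed replicates 1 to 4, against 9.50, 9.28, 9.53 and 9.15 in Non-exposed replicates 1 to 4. Every Aldrin-exposed array lay above every Non-exposed array, and the closest pair was Aldrin-exposed replicate 4 and Non-exposed replicate 3. Aldrin-exposed cells averaged 9.72 ± 0.12 and Non-exposed cells 9.37 ± 0.18 (SD, n = 4 each), a log2 difference of 0.35 (standard error 0.11, 95% interval 0.11 to 0.59) or 1.27-fold (1.08 to 1.51).

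Probe set 11727809_at of FECH read 7.53, 7.91, 7.92 and 7.62 in the Aldrin-exposed arrays and 7.24, 7.40, 7.30 and 7.39 in the Non-exposed arrays. Here too the conditions did not overlap, with the Non-exposed arrays close together (SD 0.08) and the Aldrin-exposed arrays in a high pair, replicates 2 and 3, and a lower pair. The difference was 0.41 (standard error 0.11, interval 0.17 to 0.65), or 1.33-fold. The separation seen in these 2 probe sets, with all Aldrin-exposed arrays higher, occurred in 0.643% of all probe sets, and a separation in either direction in 1.99%.

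The other 2 FECH probe sets did not separate the conditions. Probe set 11727807_at read 9.14, 9.02, 10.06 and 9.74 in Aldrin-exposed arrays, against 8.63, 9.11, 8.48 and 9.76 in Non-exposed arrays. Its highest value in each condition came from the arrays that stood apart, Aldrin-exposed replicate 3 and Non-exposed replicate 4, and its mean difference, the widest of the 29, was 0.49 (interval -0.21 to 1.20). Without both arrays it was 0.56. Probe set 11727808_s_at, whose suffix marks probes shared by several transcripts, read 9.52, 9.37, 9.52 and 8.98 in Aldrin-exposed arrays and 8.92, 9.38, 8.86 and 9.11 in Non-exposed arrays. Aldrin-exposed replicate 4 was the low array and Non-exposed replicate 2 the high one, and the difference was 0.28 (standard error 0.15).

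The 4 FECH probe sets had the higher mean in Aldrin-exposed cells in each of the 16 alternative settings of the fit. Some of these, such as unequal variances or an intensity trend, cannot change a difference of means. At the brightest probe set the difference ran from 0.28, without Non-exposed replicate 4, to 0.41, without Non-exposed replicate 3, when each array was left out in turn. Without the 2 arrays that stood apart it was 0.30 (standard error 0.11). The mean over the 4 probe sets of the gene gave 0.38. All 4 come from the same 8 arrays, so they are not separate samples.

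**Figure D2:**
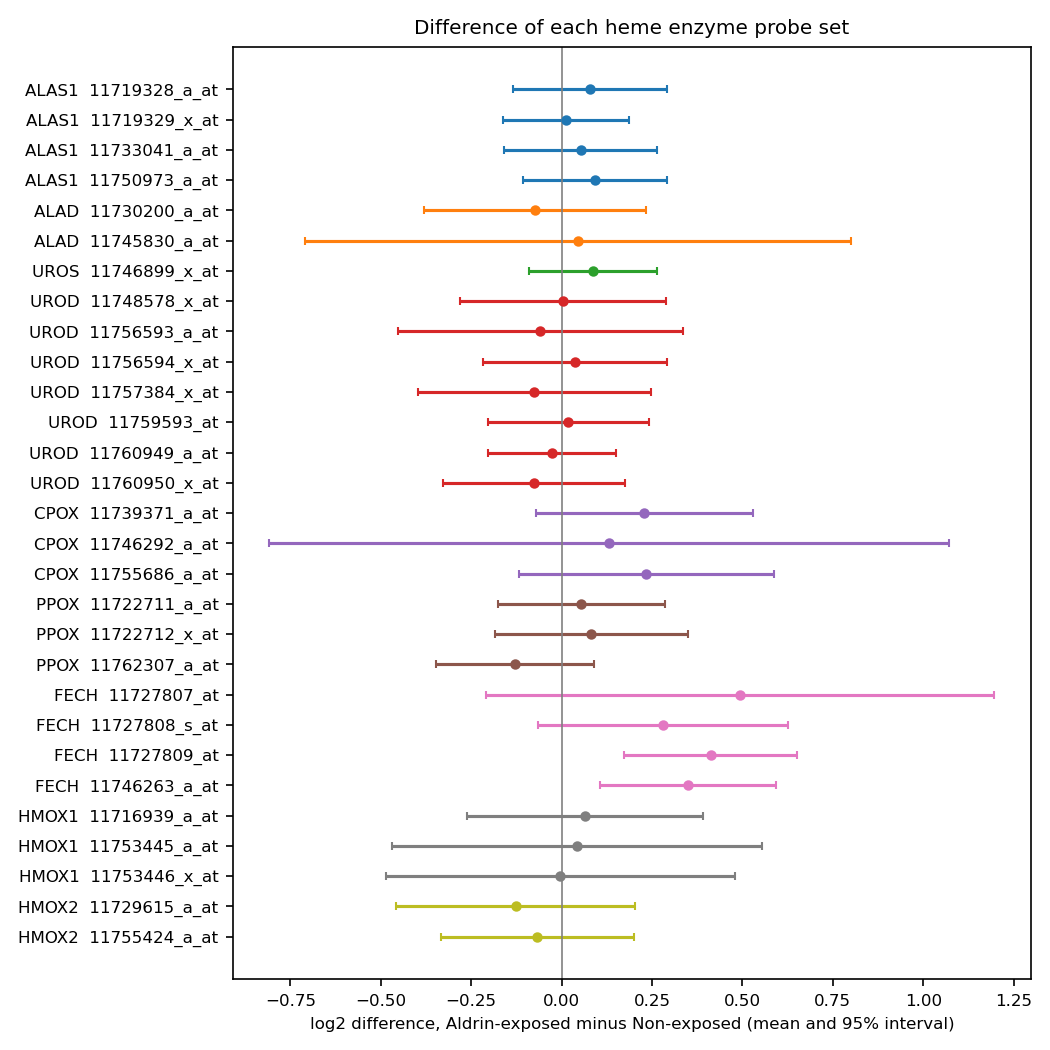
Log2 difference, Aldrin-exposed minus Non-exposed (horizontal axis), for the 29 probe sets, with points at the mean difference, bars for the 95% interval from limma, and 1 color a gene. The intervals of FECH 11727809_at and FECH 11746263_a_at lie above 0, and the other 27 cross it.

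The enzymes before FECH had smaller differences. For the 20 probe sets of ALAS1, ALAD, UROS, UROD, CPOX and PPOX, 14 had the higher mean in Aldrin-exposed cells, and the median difference was 0.04. ALAS1 (chr3:52198083-52214327), which sets the rate of the pathway in cells other than red cell precursors and is repressed by heme, was among the most tightly measured. Its brightest probe set, 11719329_x_at, read 11.61, 11.46, 11.52 and 11.45 in Aldrin-exposed arrays, against 11.46, 11.61, 11.50 and 11.41 in Non-exposed arrays. The values interleaved, and the difference was 0.01 (standard error 0.08, interval -0.16 to 0.19), so the measurement leaves room for a fold change of 0.89 to 1.14. All 4 ALAS1 probe sets had the higher mean in Aldrin-exposed cells, by 0.01 to 0.09, and Non-exposed replicate 2 read highest of the Non-exposed arrays in each of them.

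ALAD (chr9:113386312-113401284), the zinc enzyme that joins precursor molecules into porphobilinogen, had 2 probe sets of unequal precision. Probe set 11745830_a_at read 10.68, 11.43, 9.89 and 10.57 in Aldrin-exposed arrays and 10.90, 10.19, 11.18 and 10.13 in Non-exposed arrays. Aldrin-exposed replicate 3 and Non-exposed replicates 2 and 4 were its low arrays, and the difference of 0.04 had a standard error of 0.34. The other, 11730200_a_at, gave -0.07 (standard error 0.14), with the lowest of its 8 values, 8.99, in Aldrin-exposed replicate 2 and the next, 9.16, in Non-exposed replicate 1.

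UROS (chr10:125784980-125823258), which closes the porphyrin ring, was read by 1 probe set, at 10.39, 10.54, 10.58 and 10.42 in Aldrin-exposed arrays and 10.30, 10.45, 10.37 and 10.46 in Non-exposed arrays. Aldrin-exposed replicates 2 and 3 lay above all Non-exposed arrays, and replicates 1 and 4 lay inside the Non-exposed range. The difference was 0.09 (standard error 0.08). UROD (chr1:45012254-45015575), the decarboxylase that follows, had 7 probe sets, 3 higher and 4 lower in Aldrin-exposed cells, from -0.08 to 0.04. Its brightest, 11757384_x_at, read 13.02, 13.14, 12.56 and 12.87 in Aldrin-exposed arrays, against 13.16, 12.95, 13.09 and 12.70 in Non-exposed arrays. The low array of each condition was again Aldrin-exposed replicate 3 and Non-exposed replicate 4. The UROD probe sets 11759593_at and 11760949_a_at were in the dimmest 25% of the array, below 5.869.

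CPOX (chr3:98570488-98593611), the oxidase of the mitochondrial intermembrane space, came nearest to FECH in size. Probe sets 11755686_a_at and 11739371_a_at both had a difference of 0.23 (standard errors 0.16 and 0.13). The first read 7.89, 7.85, 7.83 and 7.23 in Aldrin-exposed arrays and 7.48, 7.69, 7.33 and 7.36 in Non-exposed arrays, so that 3 of the 4 Aldrin-exposed arrays lay above all Non-exposed arrays and replicate 4 lay below them. The second read 8.32, 8.14, 8.30 and 7.85 in Aldrin-exposed arrays and 7.64 to 8.09 in Non-exposed arrays, with the same 3 of 4 arrays on top.

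The brightest CPOX probe set, 11746292_a_at, had the widest spread of the 29. It read 9.22, 9.71, 8.06 and 9.33 in Aldrin-exposed arrays, against 9.70, 8.37, 9.46 and 8.27 in Non-exposed arrays. Aldrin-exposed replicate 3 and Non-exposed replicates 2 and 4 lay below the other 5 arrays, and the difference of 0.13 had an interval of -0.81 to 1.07. It became -0.09 without Non-exposed replicate 4 and 0.47 without Aldrin-exposed replicate 3.

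PPOX (chr1:161165728-161178013), the oxidase that makes protoporphyrin, had 2 probe sets slightly higher and 1 lower in Aldrin-exposed cells. The brightest, 11722711_a_at, read 9.81, 9.87, 9.71 and 9.84 in Aldrin-exposed arrays, all inside the range of 9.53 to 9.93 over Non-exposed arrays. Its difference was 0.05 (standard error 0.10). Probe set 11762307_a_at, where Aldrin-exposed cells averaged 6.70 ± 0.10 and Non-exposed cells 6.83 ± 0.15 (SD, n = 4 each), had a difference of -0.13 (standard error 0.10), the lowest of the 29.

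On the side of breakdown, HMOX1 (chr22:35381096-35394207) did not separate the conditions. Probe set 11753446_x_at read 10.80, 10.33, 11.24 and 11.24 in Aldrin-exposed arrays, against 10.61, 11.04, 10.77 and 11.20 in Non-exposed arrays. In all 3 HMOX1 probe sets Aldrin-exposed replicates 3 and 4 and Non-exposed replicates 2 and 4 were the high arrays, and Aldrin-exposed replicate 2 was the low one of its condition. The differences were below 0.01 in size for this probe set (standard error 0.21, interval -0.49 to 0.48), 0.04 for 11753445_a_at and 0.07 for 11716939_a_at. A fold change of 0.71 to 1.39 therefore lay within the interval of the brightest HMOX1 probe set, so a change within that range was not distinguished from none.

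HMOX2 (chr16:4474736-4510347) had the lower mean in Aldrin-exposed cells in both of its probe sets. The brighter, 11755424_a_at, read 11.44, 11.39, 11.17 and 11.50 in Aldrin-exposed arrays and 11.66, 11.45, 11.50 and 11.17 in Non-exposed arrays, a difference of -0.07 (standard error 0.12). The other, 11729615_a_at, gave -0.13 (standard error 0.15), where Non-exposed replicate 1 read 9.55 and the other 3 Non-exposed arrays 8.90 to 8.99, inside the Aldrin-exposed range of 8.79 to 9.11.

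**Figure D3:**
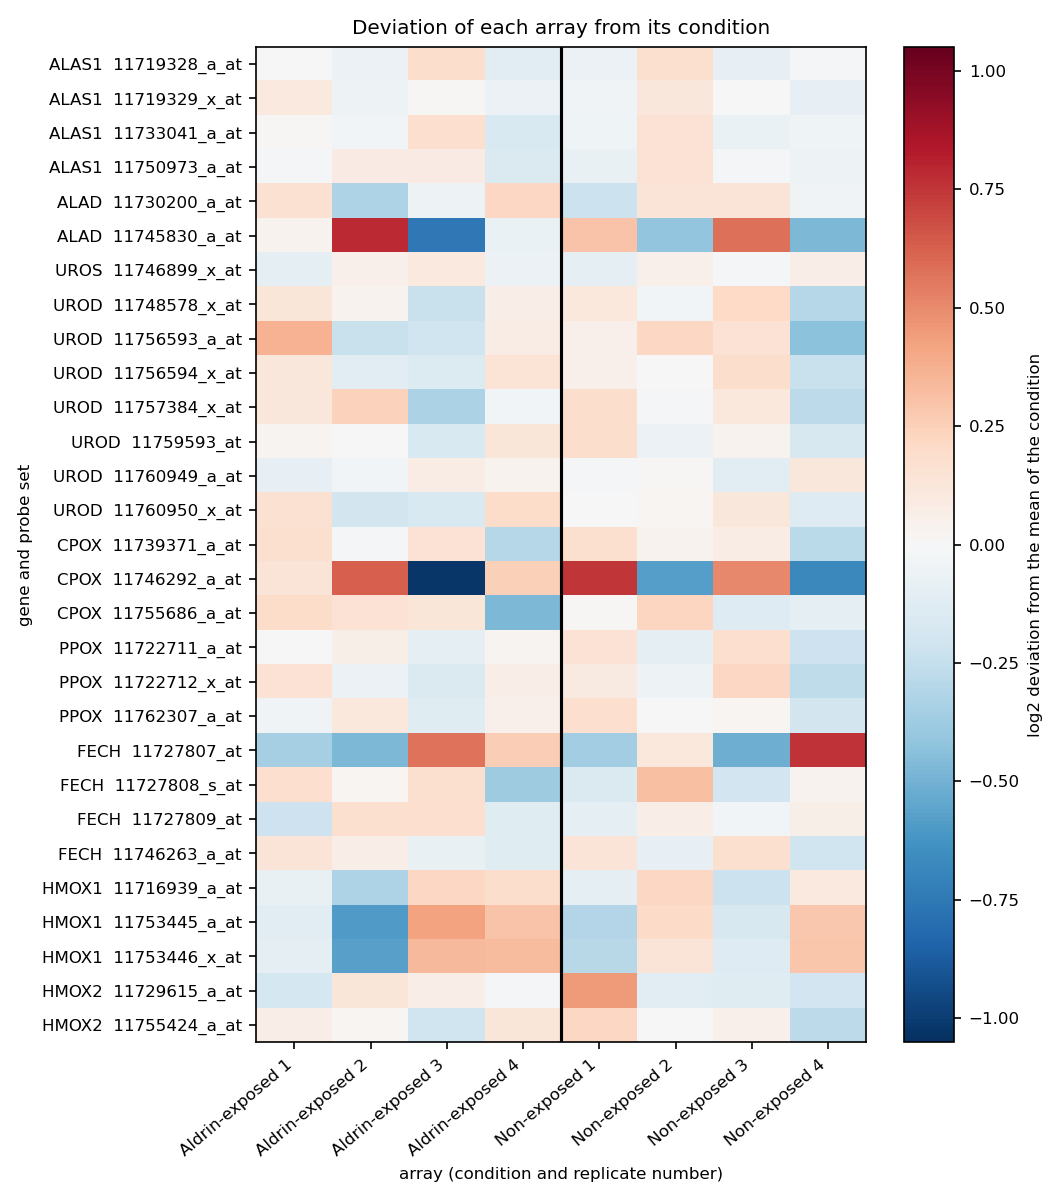
Deviation of each array (columns, with Aldrin-exposed arrays left of Non-exposed arrays) from the mean of its condition, in log2 units by color, for the 29 probe sets (rows). Aldrin-exposed replicate 3 and Non-exposed replicate 4 share their sign in 22 of 29 rows, with both lowest in CPOX 11746292_a_at and both highest in FECH 11727807_at.

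The spread within a condition thus had a shape that the enzymes shared with the rest of the array. Aldrin-exposed replicate 3 and Non-exposed replicate 4 were both below their condition in 14 of the 29 probe sets, among them 6 of 7 for UROD and all 3 for PPOX, and both above it in 8. Without this pair, 16 of the 29 probe sets had the higher mean in Aldrin-exposed cells, all 4 of FECH and 12 of the other 25. The brightest FECH probe set was not on the side of the others of its gene, since in it both arrays lay below their condition. Outside the 9 genes, the probe sets whose deviations followed it most closely over the 8 arrays were those of the kinase CSNK1G1 (Pearson r 0.985), the peptide transporter ABCB9 (0.982) and TSGA13 (0.981), the closest of all single-gene probe sets and given as a description.

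Around the enzymes, 69 of 80 listed genes of the pathway were measured with 203 probe sets, and 11 were not analysed here. At 1 probe set a gene, that of highest mean, none of the 69 passed limma's adjusted threshold, 3 were under an unadjusted p of 0.05 (PXDN, ABCG2 and MAFF) and 38 had the higher mean in Aldrin-exposed cells. Over all genes taken this way 0% passed, 2.76% were under an unadjusted p of 0.05 and 45.8% had the higher mean. The test with unequal variances likewise gave 0 of the 69.

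Among the other steps of synthesis and breakdown, 3 of 5 genes had the higher mean in Aldrin-exposed cells, with a median of 0.06. ALAS2, the isoenzyme of ALAS1 in red cell precursors, averaged 7.82 over the Aldrin-exposed arrays and 7.87 over the Non-exposed arrays. The biliverdin reductases BLVRA and BLVRB, which finish breakdown to bilirubin, had differences of -0.08 (standard error 0.13) and 0.06 (standard error 0.22). In both, Aldrin-exposed replicate 3 was the low array, at 11.21 for BLVRA and 10.92 for BLVRB, with the other Aldrin-exposed arrays at 11.63 to 11.75. The mitochondrial proteases LONP1 and CLPX, which act on ALAS1 protein, had 0.09 and 0.12 (adjusted p = 1 for both, limma).

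For heme and porphyrin transport and binding, 9 of 14 genes had the higher mean in Aldrin-exposed cells, with a median of 0.06 and none past the threshold. ABCG2, an exporter that removes porphyrins, read 7.56, 7.50, 7.39 and 7.65 in Aldrin-exposed arrays and 7.95, 7.77, 7.79 and 7.64 in Non-exposed arrays. The Non-exposed arrays other than replicate 4 lay above all Aldrin-exposed arrays, and the difference was -0.26 (standard error 0.09, adjusted p = 1, limma). ABCB10, a transporter of the inner mitochondrial membrane that binds FECH in mouse cells, had 0.30 (standard error 0.16), at 8.37, 8.41, 8.85 and 8.28 in Aldrin-exposed arrays and 8.11, 8.38, 7.80 and 8.39 in Non-exposed arrays, which overlapped.

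For the supply of mitochondrial iron and iron-sulfur clusters, which FECH uses as substrate and cofactor, the 11 measured genes lay between -0.07 and 0.11, 6 higher and 5 lower. ISCU, the scaffold on which clusters are built, had 0.11 (standard error 0.16), and the iron carrier SLC25A28 had 0.05 (standard error 0.08). Of the 3 genes of heme A and cytochrome c assembly, COX10, which makes heme O from heme, had 0.19 (standard error 0.09, adjusted p = 1, limma). COX15, which converts heme O to heme A, had -0.04 at its brightest probe set, 11727392_s_at. Their other probe sets went the other way, at -0.04 for COX10 and at 0.02 to 0.18 for COX15.

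Of the 9 measured regulators of ALAS1 and HMOX1, 4 had the higher mean in Aldrin-exposed cells and 5 the lower. MAFF and MAFG, small Maf proteins that pair with NRF2 or BACH1 at the antioxidant response element, had 0.27 (standard error 0.12) and -0.19 (standard error 0.12). For MAFF, Aldrin-exposed arrays read 9.04, 9.41, 9.03 and 9.21, against 8.73, 8.83, 8.89 and 9.15 in Non-exposed arrays, with Non-exposed replicate 4 inside the Aldrin-exposed range. The 9 measured targets of NRF2 other than HMOX1 had a median of 0.04, with 5 higher and 4 lower. Those of smallest p were OSGIN1, an oxidative stress induced growth inhibitor, at -0.28 (standard error 0.17), and malic enzyme ME1, at 0.20 (standard error 0.20).

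Of 18 heme-binding enzymes and their reductases, 9 had the higher mean in Aldrin-exposed cells and 9 the lower, and 6 were in the dimmest 25% of probe sets. The exception in size was PXDN, a secreted peroxidase of the basement membrane. Its brighter probe set, 11716086_a_at, read 7.14, 7.08, 6.70 and 6.24 in Aldrin-exposed arrays and 8.47, 8.26, 9.17 and 8.43 in Non-exposed arrays. The conditions lay more than 1 unit apart, with a difference of -1.79 (standard error 0.24, adjusted p = 0.355, limma). In 11754993_s_at the Aldrin-exposed arrays read 5.32, 5.34, 5.28 and 5.24, in the range of the dimmest 25%, and the Non-exposed arrays 6.78, 6.67, 7.20 and 7.31 (difference -1.69, adjusted p = 0.0322, limma). It was the 1 of the 203 probe sets that passed, and also the 1 of all 49293. PXDN was named with this already known, so nothing is read from its passing. No probe set of any gene passed in 9 of the 16 alternative settings, among them those without Aldrin-exposed replicate 1, 2, 3 or 4 and without Non-exposed replicate 1 or 3. SDHD, a heme-holding subunit of succinate dehydrogenase, had 0.20 (standard error 0.11).

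**Figure D4:**
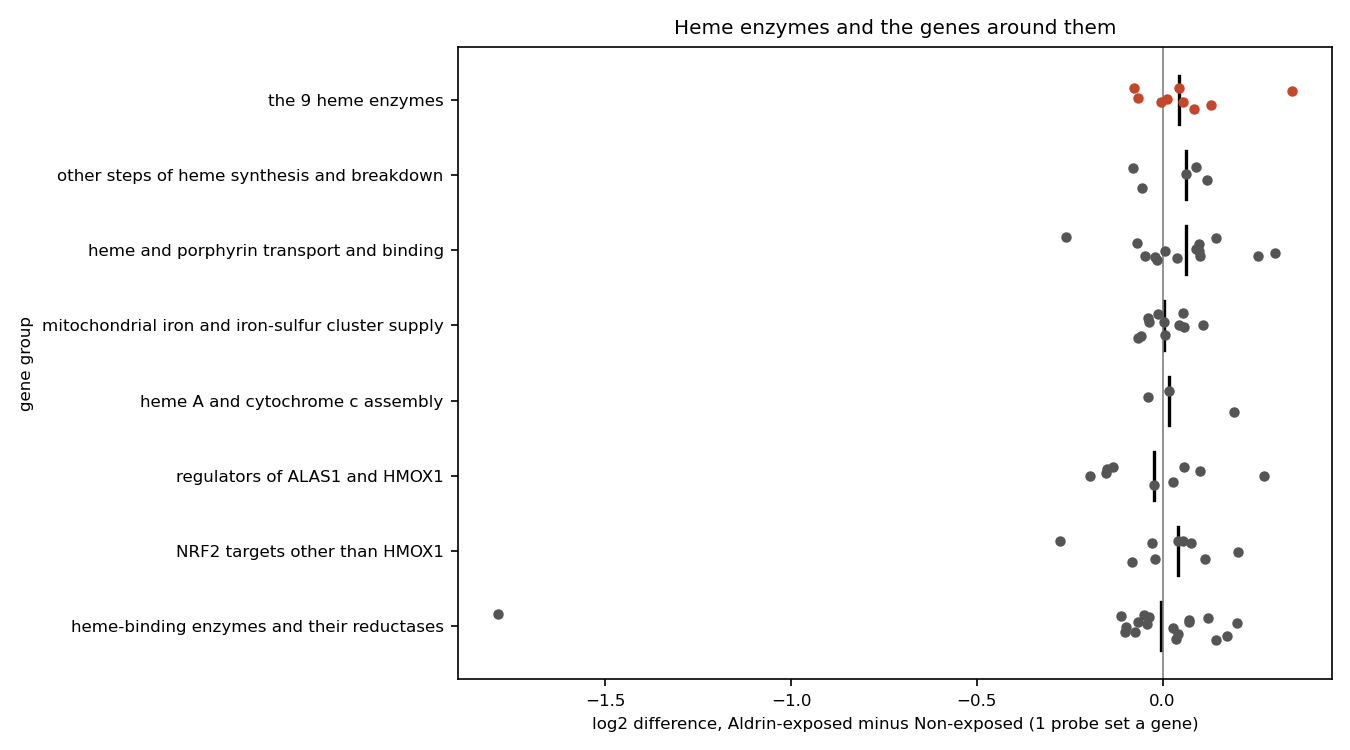
Log2 difference, Aldrin-exposed minus Non-exposed (horizontal axis), at 1 probe set a gene for the 9 heme enzymes and 7 groups of genes around them, with a point for each gene and a bar at the median of the group. The medians lie between -0.02 and 0.06, FECH is the highest point at 0.35 and PXDN the lowest at -1.79.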

How the data were processed

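Total RNA of DU145 cells, 4 samples Aldrin-exposed and 4 Non-exposed, was labelled with biotin and hybridised to Affymetrix HG-U219 arrays. The authors deposited log2 intensities from RMA (version not given in the sources used here), 1 value for each probe set and array. RMA subtracts background, forces the arrays to 1 common distribution and combines the probes of a set, so a shift shared by a whole array cannot be seen. Levels of different probe sets are not comparable. The file holds 49395 probe sets. After 102 controls were dropped, 49293 entered the fit, and 44988 of these were annotated with 1 gene. Aldrin-exposed and Non-exposed arrays were compared in limma 3.58.1 under R 4.3.3 with lmFit and moderated variances (eBayes), two-sided, and p-values were adjusted over all 49293 by Benjamini-Hochberg. The probe set of highest mean stood for a gene where 1 was needed. The enzymes and the gene lists were chosen with earlier results of these data known. Named from the lists were the 2 genes of smallest p in each, those that passed, and ALAS2, BLVRA and BLVRB. Probe sets ending in _x_at (8 of the 29) hold probes that can match other transcripts. Promoter sequences and coordinates are from RefSeq (GRCh38.p14). Alternatives were a test with unequal variances, an intensity trend, weights for arrays, a block for the replicate number, median centring, a second quantile normalization, removal of the dimmest 25%, other probe sets per gene and each array left out. Leaving out Aldrin-exposed replicate 3 and Non-exposed replicate 4 together was added after seeing the data. Fits were tested on simulated data. The number of arrays limits the precision.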

Additional observations from a re-analysis of the deposited data

Results flagged for a closer look

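In 3 of the 58 groups of 4 arrays examined (29 probe sets in each condition), 1 array stood far from the other 3, where chance marks about 1 in 20 groups. In CPOX 11755686_a_at, Aldrin-exposed replicate 4 read 7.23 and the other Aldrin-exposed arrays 7.83 to 7.89. In ALAS1 11733041_a_at, Non-exposed replicate 2 read 11.35 and the other Non-exposed arrays 11.12 to 11.15. In HMOX2 11729615_a_at, Non-exposed replicate 1 read 9.55 and the other Non-exposed arrays 8.90 to 8.99. None of the 3 involved FECH.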

How the results depend on the processing

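FECH kept the higher mean in Aldrin-exposed cells in 18 of 18 settings, with differences at the gene level of 0.28 to 0.49. UROS kept its sign in all 18 (0.03 to 0.12). Unequal variances, an intensity trend, the replicate block and removal of the dimmest 25% leave a difference of means as it is. No sign could change in those settings, nor for UROS, read by 1 probe set, with other probe sets per gene. FECH was also chosen on this contrast, so its count is a description. The sign changed in 6 settings for HMOX1, 4 for ALAD, 3 each for ALAS1 and CPOX, 2 for HMOX2 and 1 each for UROD and PPOX. The number of heme enzyme probe sets at an unadjusted p under 0.01, 2 in the fit as reported, was 0 with unequal variances and without Aldrin-exposed replicate 3 and Non-exposed replicate 4 together, and 1 with an intensity trend, array weights, median centring, a second quantile normalization or the dimmest 25% removed. Leaving out 1 array at a time gave 0 (without Aldrin-exposed replicate 2 or 3) to 2. Over those 8 fits the number without overlap between conditions ran from 2 to 4 (4 without Aldrin-exposed replicate 4), the number with the higher mean from 14 (without Non-exposed replicate 4) to 21, and the number past the adjusted threshold was 0 throughout. With 1 array fewer, any probe set separates more easily. The share without overlap over all probe sets was not counted in those fits, so nothing is read from that number. Among all probe sets, those under 0.01 ran from 181 (without Non-exposed replicate 2) to 501 (without Non-exposed replicate 4), against 316 as reported, and were 185 with unequal variances and 670 with array weights. Those past the adjusted threshold, 1 as reported, ran from 0 to 1 over the same fits and were 0 with unequal variances and without the pair of arrays. The cause of these changes was not tested.

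Deviations of same-numbered arrays from their condition correlated at 0.31, -0.34, -0.72 and -0.08 for replicates 1 to 4. The labels give replicate numbers and do not state that these pair the samples. The correlations cannot decide it, since 1 component that did not follow the replicate numbers held 58.3% of this variance. With the replicate number as a block, 1 heme enzyme probe set and 154 of all probe sets were under 0.01, and 0 passed the adjusted threshold. Each replicate number occurs once in each condition, so the block could not change a difference of means. That of FECH stayed at 0.35 (standard error 0.11). With 4 arrays a condition, the median standard error over the 29 probe sets was 0.12, and 27 of the 29 intervals included 0.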

Other observations

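Probe sets of the listed genes that do not stand for their gene gave 5 further values at an unadjusted p under 0.05 besides the PXDN probe set that passed, none of them past limma's adjusted threshold. In all, 9 of the 203 probe sets of these genes were under 0.05, beside 1515 of all 49293. Among them GCLC, the catalytic subunit of glutamate cysteine ligase, read 8.01, 8.23, 7.98 and 7.98 in Aldrin-exposed arrays and 8.38, 8.55, 8.67 and 8.86 in Non-exposed arrays with 11759894_at. The difference was -0.57 (standard error 0.11) without overlap, a separation that 1.99% of all probe sets had in either direction. The brightest GCLC probe set, 11754931_a_at, had 0.08 (standard error 0.20). NRF1 had -0.54 (standard error 0.16) with 11759653_at and -0.15 (standard error 0.15) with its brightest, 11741386_a_at. FDX1, a mitochondrial ferredoxin with a part in heme A synthesis, had 0.23 (standard error 0.10) with 11724775_at and -0.01 (standard error 0.09) with its brightest. These probe sets were picked after their values were seen, and why the probe sets of 1 gene differ was not tested.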
